A study of Homo sapiens with 9 samples.

Results

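The olfactory receptor genes of human chromosome 11 were taken from a table of histone H2A levels as every gene placed on that chromosome whose symbol has the form of an olfactory receptor (OR, a number, letters and a number). The rule used names and positions and no measured value. It gave 157 genes of the 20318 in the table, beside 200 olfactory receptor genes on other autosomes, 1 on the X chromosome and 1160 other genes of chromosome 11. The data were ChIP-seq of T47D-MTVL cells. This line derives from T47D, a human breast cancer line of the luminal type, and holds a reporter gene under the MMTV promoter. All cells were deprived of serum. They were either left without hormone (0 min) or given R5020, a synthetic progestin, at 10 nM for 30 or 60 min. H2A, a core histone, was read at 0, 30 and 60 min. HP1γ, a heterochromatin protein that binds methylated histone H3, LSD1, a histone demethylase, and BPTF, which belongs to the chromatin remodeller NURF, were read at 0 and 30 min. Each antibody and time had 1 library, so no difference below has a replicate check and no test was made. Counting errors cover the sampling of reads only. All coordinates are on GRCh37, also called hg19.

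Olfactory receptors are G protein-coupled receptors that detect odorants at the cilia of neurons in the nose. Their genes have a short coding region that is usually held in a single exon, and they lie in tandem clusters that grew by duplication. A mature olfactory neuron transcribes a single allele of a single receptor gene, while the other receptor genes are held in heterochromatin, and LSD1 is known to act in that choice. The class I families, OR51 to OR56, resemble the receptors of fish, and the class II families make up the rest. In a breast cancer line these genes are regions of short, mostly untranscribed coding sequence, with OR51E1 and OR51E2 known as exceptions that are transcribed in prostate and some other tissues. The levels below are of histone and of chromatin proteins, not of RNA, so the markers of breast or olfactory cells could not check the cell type here.

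The 157 genes formed 8 clusters when neighbours more than 1 Mb apart were separated. Cluster 1, near the end of the short arm (chr11:4388493-7961141), held 62 genes from OR52B4 to OR10A3. It held all 50 class I genes of the chromosome and 12 class II genes. The other clusters held class II genes only. Cluster 2 (chr11:48238344-48511332) held 6 genes, cluster 3 (chr11:49973943-50004071) held 2 and cluster 4 (chr11:51411378-51516211) held 2. Cluster 5 (chr11:55110627-56757342) held 45 genes and cluster 6 (chr11:57791353-59481337) held 21. Cluster 7 was the single gene OR2AT4 (chr11:74799758-74800799), and cluster 8, on the distal long arm (chr11:123624196-124441037), held 18 genes from OR6X1 to OR8A1. The median gene was 1030 bp long, and 4 genes were longer than 1.5 kb. These were OR51E1, OR51E2, OR52A1 and OR9Q1, the last an annotation of 157736 bp. GC content ran from 37.3% to 57.3%, with a median of 45.5%.

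Duplication leaves many of these genes with stretches that occur elsewhere in the genome, where a short read cannot be placed with certainty. Of the 157 genes, 95 had at least 95% of their 32-base words found once in GRCh37, and 62 had less. The closest pairs are shown because their low H2A levels, given further on, go with this. OR51A2 and OR51A4, neighbours in cluster 1, differed at 15 of 942 aligned bases. OR8B2 and OR8B3, neighbours in cluster 8, differed at 12 of 966. The stretches of 120 bases with the most differences follow, 5′ to 3′ on the minus strand, on which these genes lie, with the differing bases in capitals. They cover chr11:4976654-4976773, chr11:4968041-4968160, chr11:124252892-124253011 and chr11:124266900-124267019.
OR51A2: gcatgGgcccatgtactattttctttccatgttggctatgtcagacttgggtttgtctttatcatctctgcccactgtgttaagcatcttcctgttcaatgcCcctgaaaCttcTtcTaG
OR51A4: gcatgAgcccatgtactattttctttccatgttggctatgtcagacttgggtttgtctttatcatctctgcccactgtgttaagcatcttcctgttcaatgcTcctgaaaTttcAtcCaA
OR8B2: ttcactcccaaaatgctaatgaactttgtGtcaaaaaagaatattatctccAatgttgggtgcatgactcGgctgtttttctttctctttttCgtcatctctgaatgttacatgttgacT
OR8B3: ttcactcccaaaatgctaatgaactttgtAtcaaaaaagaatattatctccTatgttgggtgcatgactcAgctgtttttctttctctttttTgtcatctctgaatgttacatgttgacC

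H2A levels were deposited as RPKM, reads scaled to gene length and library depth. The values of short genes moved in steps of 1 read, and these steps gave library depths of 141, 168 and 133 M reads in order of time. Within 0.1 reads, 94.8% to 96.7% of 153 receptor genes then came out at a whole number of reads, against 20% for a depth not fitted. The depths were fitted to bring 231 receptor genes, many of these 153 among them, close to whole reads. The share is therefore not an independent check. A receptor gene of at most 1.5 kb held 14 to 169 reads at 0 min with a median of 60.0. It held 13 to 169 reads at 30 min and 12 to 153 at 60 min. Changes of single genes are therefore given with a counting standard error (SE), and levels of clusters as sums of reads.

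The H2A level over the receptor genes differed by place on the chromosome more than by time. Summed over the 153 genes of at most 1.5 kb, the level was 0.473 RPKM at 0 min (95% Poisson interval 0.464 to 0.483), 0.407 at 30 min and 0.458 at 60 min. The 189 receptor genes of that length on other autosomes read 0.439, 0.383 and 0.428. Among the clusters of chromosome 11, cluster 8 was highest at 0 min, at 0.737 RPKM (0.705 to 0.771), followed by cluster 2 at 0.715 (0.659 to 0.775). The intervals of these clusters overlapped. Cluster 7, the single gene OR2AT4, read 0.573 (0.457 to 0.71), cluster 6 read 0.539 (0.513 to 0.567) and cluster 5 read 0.475 (0.458 to 0.493). The interval of cluster 7 held the value of cluster 6, while those of clusters 6 and 5 did not meet. Among genes with unique sequence alone, given further on, the intervals of clusters 6 and 5 did overlap. Cluster 3 at 0.374 (0.307 to 0.451), cluster 1 at 0.355 (0.343 to 0.368) and cluster 4 at 0.298 (0.238 to 0.369) were lowest, with overlapping intervals. Clusters 8 and 1 also stood apart at 30 min, at 0.611 and 0.316, and at 60 min, at 0.668 and 0.362.

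**Figure D1:**
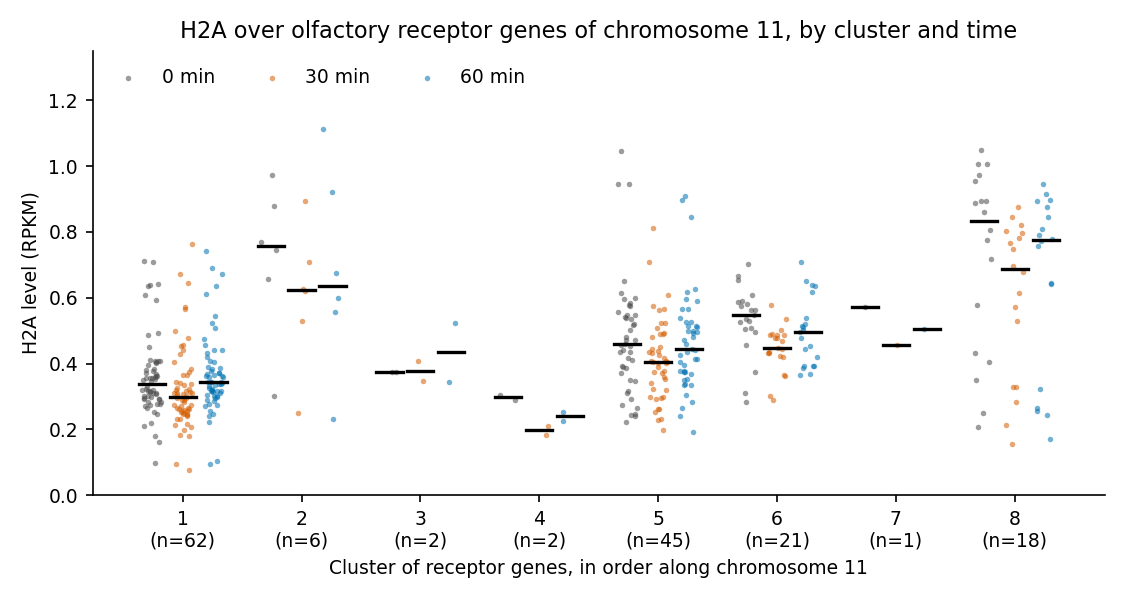
H2A level in RPKM of each of the 157 olfactory receptor genes, by cluster in order along the chromosome and by time. Each point is a gene in 1 library and each bar is the median, which at 0 min was 0.339 in cluster 1 and 0.833 in cluster 8.

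Class I and class II genes of cluster 1 both read below the class II genes of the other clusters. In cluster 1 at 0 min, 47 class I genes read 0.363 RPKM (0.349 to 0.378) and 12 class II genes read 0.325 (0.299 to 0.352). The 94 class II genes outside cluster 1 read 0.55 (0.538 to 0.563). Inside cluster 1 the class II genes were lower than the class I genes, by a log2 difference of −0.16 (counting SE 0.07). Genes of other kinds in the same places differed in the same direction. With each level divided by the gene's number of annotated transcripts, the 48 genes inside cluster 1 that code for other proteins had a median of 0.333, and those in the 1 Mb on either side had 0.33. The 3 other genes inside cluster 8 had a median of 0.721 and the 27 in the 1 Mb on either side had 0.803. The 1134 other genes of chromosome 11 had a median of 0.464. The median GC content of the receptor genes was 46.4% in cluster 1 and 47.0% in cluster 8. No library of input DNA was among the samples, so levels were not set against the amount of DNA in each region. The part of any property of these regions in the difference, DNA copy number included, was not tested.

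Genes with more repeated sequence had lower H2A medians. At 0 min, 9 genes with under 50% of their words found once had a median of 0.25 RPKM, from 0.099 to 0.433. The 28 genes between 50% and 80% had a median of 0.298, the 23 between 80% and 95% had 0.409, and the 93 at 95% or above had 0.508, from 0.275 to 1.049. Over the 153 genes, level and share of words found once had a Pearson correlation of 0.43 and a Spearman correlation of 0.39, and level and GC content 0.09 and 0.08. These points share 1 library. The 15 genes at least 95% identical to another receptor gene had a median of 0.25, the 10 at 90% to 95% had 0.399, the 24 at 80% to 90% had 0.465 and the 68 under 80% had 0.474. The 36 with no copy aligned over most of their length had 0.382, below the 0.399 of the 90% to 95% group. How reads with several placements were treated is not given in the sources used here, and its part in these levels was not tested. With the genes of at least 95% unique words alone, cluster 8 read 0.904 RPKM (0.86 to 0.949, 12 genes) and cluster 1 read 0.381 (0.365 to 0.397, 38 genes), so the gap between the clusters was as large. On the same terms cluster 6 read 0.573 (0.541 to 0.606) and cluster 5 read 0.538 (0.514 to 0.564), with overlapping intervals. The genes of clusters 3 and 4 had 50.1% to 70.2% unique words, so their low place could not be checked in this way.

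**Figure D2:**
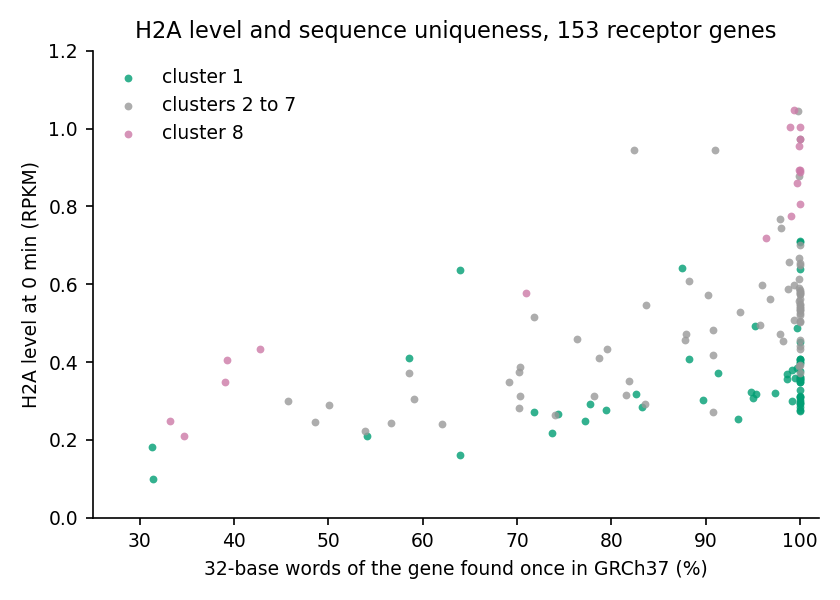
H2A level at 0 min in RPKM against the percentage of each gene's 32-base words found once in the genome, for 153 receptor genes of at most 1.5 kb. Genes of cluster 8 with unique sequence lie between 0.719 and 1.049, and those of cluster 1 between 0.275 and 0.711.

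Within cluster 8 the genes fell apart by this property. The group of OR10G4, OR10G9 and OR10G7, which share 95.2% to 96.3% of their bases with a neighbour, read 0.349, 0.433 and 0.406 RPKM at 0 min. OR8B2 read 0.250, 0.215 and 0.171 at 0, 30 and 60 min, and OR8B3 read 0.209, 0.156 and 0.244. The 12 genes of the cluster with unique sequence had a median of 0.894 at 0 min. OR8A1 was the highest receptor gene of the chromosome at 0 min as deposited, at 1.049 RPKM, and read 0.876 at 30 min and 0.946 at 60 min. OR6T1 and OR8B8 both read 1.005 at 0 min. OR5AP2 of cluster 5 read 1.046, 0.813 and 0.846, and OR4C3 of cluster 2 read 0.974, 0.894 and 1.111, which made it the highest at 30 and 60 min. At the other end, OR51A4 read 0.099, 0.077 and 0.105, and OR51A2 read 0.181, 0.095 and 0.096. These are the 2 genes of cluster 1 whose sequences are set out above.

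Levels between genes can also depend on how many transcripts the table's annotation gave a gene. Divided by the number of transcripts in a later version of the annotation, the median of 156 receptor genes at 0 min was 0.34, against 0.41 RPKM as deposited and 0.364 for all genes on the divided scale. On that scale OR5AP2 (1.05), OR6T1 (1.00) and then OR4D5 and OR4C3 (both 0.974) were highest. OR56A4 (0.0690), OR56A1 (0.0973) and OR51A4 were lowest. The later number did not carry over to these genes, however. Receptor genes with 1, 2, 3 and 4 transcripts there had median RPKM of 0.408, 0.409, 0.416 and 0.507, and only 11 of 27 genes with 2 transcripts held an even number of reads. OR56A4 and OR56A1 read 0.276 and 0.292 as deposited.

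At 30 min of progestin the receptor genes as a group read slightly lower, by about as much as the genome did. Changes are log2 ratios taken after 0.05 was added to both RPKM values. Over the 156 genes that reached a mean RPKM of 0.1 (all but OR51A4), the median change was −0.18, with −0.6 and 0.19 as the 5th and 95th percentiles, against −0.14 over all 19709 genes. It was −0.15 over 184 receptor genes of other autosomes and −0.19 over the 1153 other genes of chromosome 11. In all, 121 of the 156 genes (77.6%) read lower, against 71.3% of all genes. Past 0.5, 17 genes were lower, which is 10.9% against 1.99% of all genes, and 1 was higher, which is 0.641% against 0.345%. Short genes hold few reads, and of the other genes of at most 1.5 kb 16.7% were lower and 4.01% higher past 0.5. As measured, the receptor genes' shares were below those of genes of their size. Those other short genes had a higher median GC content, 53.4%, and shares with the GC trend taken off are given below. With the reads summed, the log2 change was −0.22 (counting SE 0.02), and −0.20 (0.02) in receptor genes on other autosomes.

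The summed level was lower at 30 min in every cluster but cluster 3, whose 2 genes gave 0.01 (counting SE 0.19). In cluster 1 the summed change was −0.17 (counting SE 0.04), with 44 of 61 genes lower. In cluster 5 it was −0.20 (0.04), with 31 of 45 lower, in cluster 6 −0.27 (0.05), with 19 of 21 lower, and in cluster 8 −0.27 (0.05), with 17 of 18 lower. In cluster 2 all 6 genes were lower. The difference between clusters was not tested. Across all genes the change at 30 min followed GC content, with a Pearson correlation of −0.76 and a Spearman correlation of −0.85 over 19709 genes. In the receptor genes the values were −0.14 and −0.15 over 157 genes, whose range of GC is narrower. After the genome-wide GC trend was taken off, the receptor genes' median change was −0.03, with 88 genes lower and 68 higher (9932 and 9777 of all genes). Past 0.5, 7 of 156 were then lower and 3 higher. Of all 19709 genes 46 were lower and 79 higher, and of 748 other genes of at most 1.5 kb 25 and 56. The receptor genes' share lower, from 7 genes, was then above that of genes of their size, and their share higher below it. All comparisons of H2A between times share libraries, so their values are not independent of each other.

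Like other receptor genes of at most 1.5 kb, the genes with the lowest changes at 30 min held few reads. Several held more than the median of 60.0 at 0 min. OR51A7, in cluster 1, read 0.401, 0.215 and 0.288 RPKM at 0, 30 and 60 min, or 53, 34 and 36 reads, a change at 30 min of −0.77 (counting SE 0.32). OR51I1 of the same cluster read 0.451, 0.258 and 0.303, a change of −0.70 (0.29). Both were lowest at 30 min in RPKM. OR4S2 read 0.547, 0.323 and 0.498 (−0.68, counting SE 0.26), and OR4C6, the next gene in cluster 5, read 0.585, 0.353 and 0.512 (−0.66, 0.24). OR5J2 read 0.598, 0.360 and 0.617 (−0.66, 0.25), so that its 60 min value was again at the 0 min level. OR51A2, with 24, 15 and 12 reads, changed by −0.67 with a counting SE of 0.47. Among genes with more reads, OR10S1 of cluster 8 read 0.888, 0.572 and 0.644 (140, 108 and 96 reads), a change of −0.59 (0.18). OR9G1 of cluster 5 read 0.945, 0.608 and 0.910 (−0.60, 0.20). The other genes lower past 0.5 were OR51L1, OR52E8, OR56A3, OR4A5, OR4P4, OR5L2, OR8H1, OR5B17 and OR5B2, with changes between −0.65 and −0.51.

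The genes with the highest changes at 30 min also held few reads. OR5P2 of cluster 1 read 0.253, 0.383 and 0.324 RPKM, or 38, 69 and 46 reads, a change of 0.52 (counting SE 0.29), and was the 1 gene past 0.5. OR5T2 (0.49, 0.26), OR5AK2 (0.42, 0.30), OR51Q1 (0.41, 0.26) and OR52W1 (0.31, 0.25) came next. Across the 156 genes, 19 were lower and 1 was higher by more than 2 counting standard errors. Among other genes of at most 1.5 kb these shares were 16.4% and 1.34%, and among all genes, which are mostly longer, 58.2% and 21.2%. The reads recovered from RPKM at 0 min summed to 598669861 over all genes, above the library depth of 141 M. Recovered reads were thus overstated for many of those genes. Their counting errors came out too small and the last 2 shares too large, so these are no measure for the receptor genes. Of the 4 long genes, which hold over 1000 recovered reads each, all but OR52A1 changed little. OR51E1 read 0.608, 0.572 and 0.636 RPKM (−0.08, counting SE 0.06) and OR51E2 read 0.592, 0.566 and 0.546 (−0.06, 0.05). OR9Q1 read 0.374, 0.364 and 0.366 (−0.03, 0.02). OR52A1, with the lowest GC content of all receptor genes here, read 0.317, 0.365 and 0.327 (0.18, 0.05). It was the 1 gene higher by more than 2 counting standard errors, and after the GC trend was taken off its change was 0.02.

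**Figure D3:**
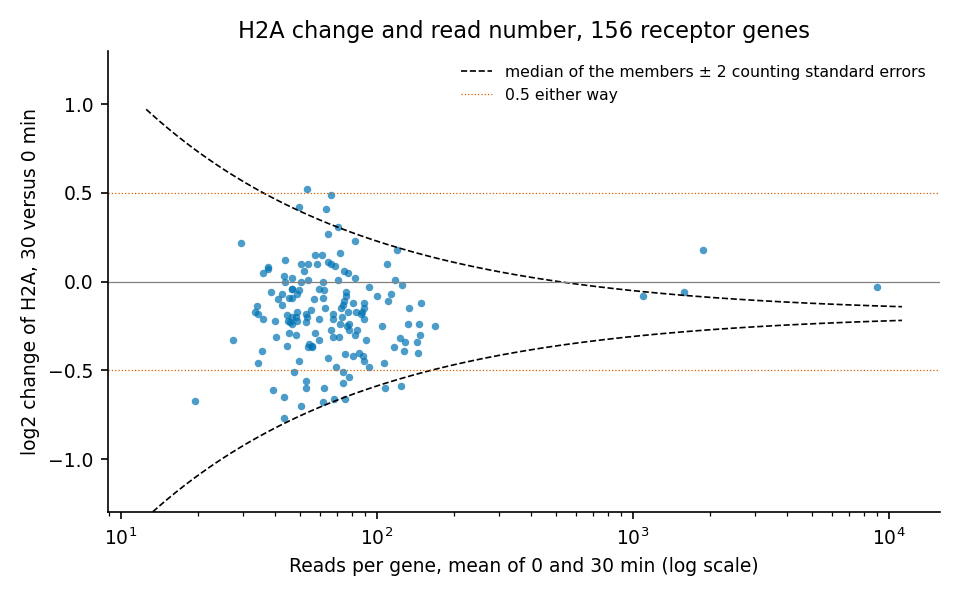
Log2 change of H2A at 30 versus 0 min against the mean number of reads (log scale) for 156 receptor genes, each point a gene. Dashed lines mark the group's median change plus and minus 2 counting standard errors, and dotted lines mark 0.5 either way; most points lie between the dashed lines.

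At 60 min the receptor genes were back near the 0 min level. The median change from 0 min was −0.01, against −0.03 over all genes, with 81 of 156 lower and 74 higher (61.2% and 38.4% of all genes). Past 0.5, 7 were lower (4.49%) and 3 higher (1.92%), against 0.639% and 0.249% of all genes and 7.89% and 5.08% of other genes of at most 1.5 kb. With reads summed the level was lower by 0.05 (log2 change −0.05, counting SE 0.02). By cluster the summed change was 0.03 (0.04) in cluster 1 and −0.14 (0.05) in cluster 8. From 30 to 60 min the median change was 0.17, against 0.09 over all genes, with 111 of 156 higher (71.5% of all genes). Past 0.5, 15 were higher (9.62%) and 2 lower (1.28%), against 0.756% and 0.294% of all genes and 11% and 5.08% of other short genes. By RPKM over the 3 times, 91 of the 157 genes were lowest at 30 min and 13 were highest at 30 min. Another 32 were lower or equal at each step, and 21 were higher or equal at each step. These patterns were not counted over all genes, of which 71.3% were lower at 30 min and 71.5% higher from 30 to 60 min.

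The largest changes at 60 min sat in pairs of near copies. OR5L1 of cluster 5 read 0.517, 0.378 and 0.240 RPKM, or 80, 70 and 35 reads, a change of −0.97 (counting SE 0.29) at 60 min. Its neighbour OR5L2, 94.7% identical, read 0.387, 0.228 and 0.305 (−0.30, 0.31). OR10A5 of cluster 1 read 0.637, 0.498 and 0.337 (−0.83, 0.26), and OR10A2, 93.6% identical to it, read 0.162, 0.197 and 0.314 (0.78, 0.37). The changes of the first pair had the same sign and those of the second pair opposite signs. The part of read placement between copies was not tested. Other genes lower past 0.5 were OR56A3 (−0.76, 0.29), OR8K1 (−0.69, 0.26), OR51A2 (−0.66, 0.51), OR10G7 (−0.58, 0.32) and OR51I1 (−0.51, 0.30). OR8K1, whose sequence is unique, read 0.576, 0.491 and 0.339. OR5AK2 (0.57, 0.31) and OR8H3 (0.52, 0.33) were the other genes higher past 0.5, followed by OR52A5 (0.49, 0.31) and OR4D11 (0.44, 0.25). None of the 3 genes higher past 0.5 had unique sequence.

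Peaks of the 3 other proteins were at a smaller share of receptor genes than of all genes, whose windows are longer. For LSD1 at 0 min and displaced BPTF the share was not below that of other short genes. Cluster 8 held more of the receptor genes with a peak than any other cluster in each list that had one. A gene was counted where a deposited peak touched the gene or the 5 kb on either side. At 0 min 12 of 157 genes (7.64%, Wilson 95% interval 4.43 to 12.9) had an HP1γ peak, against 29.9% of all genes and 13.3% of other genes of at most 1.5 kb. At 30 min 9 genes (5.73%) had one, against 25.7% and 10.7%. LSD1 peaks were at 18 genes (11.5%, 7.38 to 17.4) at 0 min, against 26.1% of all genes and 10.7% of other short genes. At 30 min they were at 8 (5.1%), against 24.5% and 8.08%. The whole LSD1 list held 34990 peaks at 0 min and 20495 at 30 min, of which 2356 and 1130 were on chromosome 11. BPTF was deposited as peaks displaced or recruited by hormone. Displaced peaks were at 4 genes (2.55%), against 9.14% of all genes and 1.62% of other short genes, and recruited peaks were at 0 of 157 (upper Wilson limit 2.39%), against 5.3% and 1.5%. In all, 124 receptor genes had no peak from any list. Per Mb of window at 0 min, receptor genes had 5.88 HP1γ peaks, all genes 11.8 and other short genes 14.1. For LSD1 at 0 min these densities were 9.62, 13.1 and 10.7, and for displaced BPTF 2.14, 2.1 and 1.49. At 30 min they were 6.95, 8.54 and 10.4 for HP1γ and 4.28, 7.34 and 9.06 for LSD1. Receptor genes on other autosomes had HP1γ peaks in 11% at both times and LSD1 peaks in 14.5% and 6.0%.

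The contrast between clusters 1 and 8 was wider for peaks than for H2A. In cluster 8, 9 of 18 genes had an HP1γ peak at 0 min and 5 at 30 min, and 9 had an LSD1 peak at 0 min and 3 at 30 min. In cluster 1, 0 of 62 genes had an HP1γ peak at either time (upper Wilson limit 5.83%), and LSD1 had 0 at 0 min and 1 at 30 min. Over the whole span of cluster 1, HP1γ had 0.56 and 1.68 peaks per Mb at 0 and 30 min and LSD1 had 0.28 and 0.56. Over that of cluster 8, HP1γ had 40.4 and 30.6 and LSD1 had 63.7 and 23.3. Chromosome 11 as a whole had 16.6, 11, 17.5 and 8.37. Cluster 5 lay below the chromosome in each list, at 1.82 and 7.29 for HP1γ and 6.07 and 1.82 for LSD1. Cluster 2 had 18.3 and 14.7 for HP1γ and 22.0 and 7.33 for LSD1. The surroundings differed in the same way: the 1 Mb on either side of cluster 1 had 2.5 and 2.0 HP1γ peaks and 1.0 and 3.0 LSD1 peaks per Mb, and those of cluster 8 had 56 and 28.5, and 47.0 and 20. H2A was also lower in cluster 1 than in cluster 8, but the order of clusters by peaks was not that by H2A throughout. Cluster 3, of 2 genes, had the highest LSD1 density at 30 min, 66.4 per Mb from 2 peaks, and an H2A level of 0.377. The whole HP1γ list held 31845 peaks at 0 min and 23836 at 30 min. From 0 to 30 min HP1γ density was higher in clusters 1, 4, 5 and 6 (10.1 and 16.0 in cluster 6). The peaks there went from 2 to 6, 0 to 1, 3 to 12 and 17 to 27. In clusters 2 and 8 HP1γ density was lower at 30 min. As measured, summed H2A was lower at 30 min in all of these clusters, and the median change over all genes was −0.14. Corrected for GC content, the direction was not uniform. Cluster 1 then had a median H2A change of 0.04, from 25 genes lower and 36 higher. The corrected medians of clusters 4, 5 and 6 were −0.39, −0.07 and −0.01, and those of clusters 2 and 8 were −0.04 and −0.06. The part of peak density in H2A, or of H2A in peak density, was not tested.

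**Figure D4:**
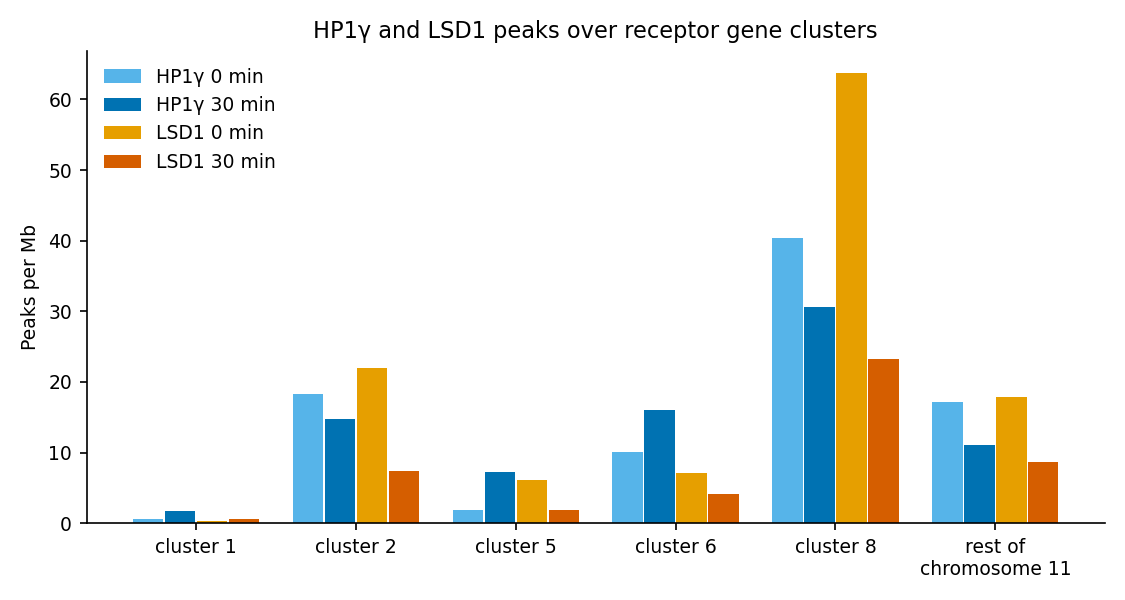
Peaks per Mb of HP1γ and LSD1 at 0 and 30 min over the spans of the larger receptor gene clusters and over chromosome 11 outside all 8 spans, each bar from 1 deposited list. Of the regions shown, cluster 8 is highest in all 4 lists, with 63.7 LSD1 peaks per Mb at 0 min, and cluster 1 is lowest, with 0.28.

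Genes with and without repeated sequence both had peaks. HP1γ peaks at 0 min were at 7 of 95 genes with unique words (7.37%) and 5 of 62 with repeated words (8.06%). For LSD1 at 0 min they were at 13 (13.7%) and 5 (8.06%). The 54 peaks at receptor genes lay mostly outside coding sequence. By a later annotation 28 were between genes, 9 in introns, 12 touched a UTR, 2 a coding exon and 3 a non-coding exon. A peak that touched both a UTR and a coding exon was counted under UTR, so the 2 are a lower limit. The windows searched were themselves mostly flank. The highest-scored LSD1 peak at 0 min (chr11:123814233-123814912, authors' score 58.71) touched the start of OR6T1 and lay within 5 kb of OR4D5. The next was 4378 bp from OR6M1 (56.12), then those beside OR8B3 (52.19), OR4A47 (51.4) and OR8D2 (49.82). For HP1γ at 0 min the first were beside OR8B4 (52.15), OR8B2 (44.19), OR4D5 and OR6T1 (a shared peak, 42.73) and OR8D2 (42.06). At 30 min they were in OR8A1 (52.47), beside OR8D1 (50.07), in OR9Q1 (49.1 and 40.91) and beside OR6M1 (40.67). LSD1 peaks at 30 min were led by those beside OR4C12 (39.35), OR6M1 (37.66) and OR5B3 (33.25). OR6M1 and OR8A1 had peaks from 4 lists each, and in cluster 1 the LSD1 peak at 30 min was beside OR52E8 (32.19), in an intron of TRIM5.

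From 0 to 30 min, 1 position at a receptor gene was kept by a protein. This was the LSD1 site 5′ of OR6M1, called at chr11:123681473-123682223 at 0 min and chr11:123681705-123682058 at 30 min. It was 1 of 18 LSD1 peaks of 0 min at receptor genes, and 0 of 11 HP1γ peaks of 0 min were kept. The share kept over the whole lists was not computed, so low overlap cannot be called particular to receptor genes. OR5B3 had LSD1 peaks at both times and OR6M1, OR8A1 and OR9Q1 had HP1γ peaks at both times, but at other places. OR6T1 and OR8A1 also had LSD1 peaks at different places at the 2 times. At OR5T3 the LSD1 and HP1γ peaks of 0 min overlapped, at OR8A1 the LSD1 peak of 0 min overlapped an HP1γ peak of 30 min, and at OR8D1 the displaced BPTF peak overlapped an HP1γ peak of 30 min. The other displaced BPTF peaks were at OR8I2 (chr11:55862730-55863302), OR9Q1 (chr11:57947386-57947918) and OR8D4 (chr11:123773896-123774341). The H2A level of OR8I2 was 0.944, 0.709 and 0.898 RPKM and that of OR8D4 was 0.807, 0.613 and 0.777. The 12 genes with an HP1γ peak at 0 min had a median H2A level of 0.717 RPKM, against 0.408 for the 145 without, and the 18 with an LSD1 peak had 0.666, against 0.401 for 139. Of these genes, 9 of the 12 and 9 of the 18 were in cluster 8. Inside cluster 8 the medians were 0.859 for 9 genes with a peak and 0.807 for 9 without, for each of the 2 proteins. Outside it they were 0.473 (3 genes) and 0.399 (136) for HP1γ, and 0.538 (9) and 0.389 (130) for LSD1. The ranges of genes with and without a peak overlapped in each of these comparisons.

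The sequences of 5 of these sites are shown so that a reader can see what lay under the peaks: the kept LSD1 site of OR6M1 (chr11:123681732-123682031, minus strand), the overlap at OR5T3 (chr11:56021244-56021461, plus strand), the middle of the displaced BPTF peak of OR8D4 (chr11:123773969-123774268, plus strand), the middle of the OR52E8 peak of cluster 1 (chr11:5879575-5879874, minus strand), and the start of OR6T1 from 250 bases before to 50 after (chr11:123814531-123814830, minus strand), under the highest LSD1 score. Each runs 5′ to 3′ on the strand of its gene. Capitals mark AGAACA or TGTTCT, one arm of the element that the progesterone receptor binds. All 5 were AT-rich, with a GC content of 31.7% to 37.2%, and none held the full element, which is AGAACA, 3 bases of any kind and TGTTCT.
OR6M1: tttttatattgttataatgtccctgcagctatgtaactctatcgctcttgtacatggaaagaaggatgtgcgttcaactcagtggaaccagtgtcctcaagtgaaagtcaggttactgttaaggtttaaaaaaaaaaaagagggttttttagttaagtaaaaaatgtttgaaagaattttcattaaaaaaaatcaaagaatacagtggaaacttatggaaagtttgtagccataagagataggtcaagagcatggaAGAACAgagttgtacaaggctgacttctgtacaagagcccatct
OR5T3: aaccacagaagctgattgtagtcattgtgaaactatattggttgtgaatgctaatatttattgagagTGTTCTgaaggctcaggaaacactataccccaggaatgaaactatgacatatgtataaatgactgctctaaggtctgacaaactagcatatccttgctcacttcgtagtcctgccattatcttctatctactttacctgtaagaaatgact
OR8D4: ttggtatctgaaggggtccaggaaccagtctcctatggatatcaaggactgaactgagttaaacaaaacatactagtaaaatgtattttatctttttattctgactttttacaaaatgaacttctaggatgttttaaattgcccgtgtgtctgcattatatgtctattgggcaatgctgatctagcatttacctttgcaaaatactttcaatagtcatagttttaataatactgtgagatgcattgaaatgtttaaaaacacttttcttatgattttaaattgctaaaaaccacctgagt
OR52E8: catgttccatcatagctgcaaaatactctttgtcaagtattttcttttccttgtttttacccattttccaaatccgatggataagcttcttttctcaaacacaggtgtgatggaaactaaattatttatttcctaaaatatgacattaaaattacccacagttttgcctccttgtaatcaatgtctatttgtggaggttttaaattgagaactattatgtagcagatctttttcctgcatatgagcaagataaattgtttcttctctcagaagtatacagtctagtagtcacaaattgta
OR6T1: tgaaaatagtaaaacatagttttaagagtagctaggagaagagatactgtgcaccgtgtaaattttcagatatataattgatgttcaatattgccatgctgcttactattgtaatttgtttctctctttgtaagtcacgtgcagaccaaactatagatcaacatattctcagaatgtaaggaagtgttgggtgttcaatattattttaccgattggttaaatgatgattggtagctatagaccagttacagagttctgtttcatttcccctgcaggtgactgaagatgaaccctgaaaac

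Motifs were searched on both strands from 250 bases before to 50 after the start that the table gives each gene. The single arm, AGAACA, was in 40 of 157 receptor gene starts (25.5%), in 30.5% of those on other autosomes and in 12.5% of all genes. The full element was in 0 of the 157 and 0 of all 20318. TAATTA, the core site of homeodomain proteins such as LHX2, was in 38 starts (24.2%), in 17.0% of receptor genes on other autosomes and in 3.79% of all genes. The site of the early B cell factors, TCCC, 2 bases of any kind and GGGA, was in 1 start (0.637%) and in 1.22% of all genes. In the central 300 bases of peaks, AGAACA was in 7 of 18 LSD1 peaks at receptor genes at 0 min (38.9%) against 25.9% of the whole list, and in 3 of 11 HP1γ peaks (27.3%) against 23.7%. At 30 min it was in 2 of 8 LSD1 peaks (25% against 23.8%) and 5 of 13 HP1γ peaks (38.5% against 24.4%), and it was in 0 of 4 displaced BPTF peaks (against 25.8%). A match of letters is not a bound site. The base composition of the windows searched was not compared between these sets, and its part in the shares was not tested.

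In the listed genes of the receptor pathway and in the listed neighbours no change from 0 min passed 0.5 at 30 or 60 min. Among the 69 other genes inside the cluster spans with enough signal, 1 was higher and 1 lower past 0.5 at 30 min, and 1 higher and 0 lower at 60 min. The 28 genes of odorant signalling and receptor choice had a median change of −0.18 at 30 min, with 22 lower and 6 higher, and of −0.05 at 60 min. OMP, a marker of mature olfactory neurons that lies on chromosome 11, read 0.521, 0.362 and 0.398 RPKM (−0.47 at 30 min). CNGA4, a subunit of the olfactory cation channel that lies in the span of cluster 1, read 0.69, 0.6 and 0.664 (−0.19). KDM1A, which encodes LSD1, changed by 0.03, and CBX3, which encodes HP1γ, by 0.05. The 16 measured genes of the neighbour list had a median of 0.00 at 30 min, with 8 lower and 8 higher. Of these, 14 lay inside a cluster span, with a median of −0.06, 8 lower and 6 higher, and 2 lay outside. For comparison, 9 luminal breast markers had a median of −0.19 and 6 olfactory neuron markers −0.37, which after the GC trend was taken off became 0.01 and −0.08.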

How the data were processed

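ChIP-seq was read in 9 libraries of T47D-MTVL, 1 for each antibody and time. Per the submitters' processing notes, Bowtie 1.0.0, HOMER 4.7.2 and build hg19 (GRCh37) were used. H2A was deposited as RPKM of protein-coding genes, which the authors made with reads of either strand and GENCODE version 18, per the file headers. HP1γ and LSD1 peaks were deposited by the authors with a score, and BPTF peaks as positions. The definition of the score and the calling of the BPTF peaks are not given in the sources used here.

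A pseudocount of 0.05 was added to the RPKM before log2 ratios were taken, so changes of low values are understated. Genes with a mean RPKM under 0.1 were left out of changes. Reads were recovered from the RPKM steps, and counting errors and Poisson intervals rest on them. Recovery, change and peak assignment were tested on simulated data. The GC trend was the median change in 20 bins of GC content over all genes. Levels were compared per length, as deposited and per transcript of version 44 of the annotation lifted to GRCh37, to which 140 of the 157 genes were matched by identifier, 16 by symbol and 1 not at all. Shares of words found once came from the GRCh37 genome and identities from blastn 2.17.0. Python 3.11.15, pandas 2.3.3 and numpy 2.4.6 were used.

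With 1 library in each group no test was possible, so counts past 0.5 were set beside those of all genes. Named genes were the 5 largest rises and falls at 30 and 60 min, all genes past 0.5 at those times, the 3 highest and lowest by level, those with a BPTF peak, and those with the highest-scored or kept peaks or near-identical copies. The lists were odorant signalling and receptor choice, genes known as neighbours of receptor genes, luminal breast markers and olfactory neuron markers. The receptor genes and the lists were chosen with earlier results of these data known.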

Additional observations from a re-analysis of the deposited data

How the results depend on the processing

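No paired analysis was possible because each group holds 1 library, and for the same reason none could be left out. Other settings moved 56 of the values given for the groups and left 62 within the limits set for a match. For 30 named genes, the 4 settings that can alter a gene's own change (both pseudocounts, centring and GC) gave 240 values, all within the 95% counting interval of the reported change. These intervals are wide, so this does not show that single changes are stable. OR51A7 at 30 min, −0.77 with a counting SE of 0.32, became −0.33 with a pseudocount of 0.5 and still counted as within. The other settings only choose genes or move the threshold. At 30 versus 0 min a pseudocount of 0.01 gave 2 genes higher past 0.5, and one of 0.5 gave a median of −0.09 with 0 lower and 0 higher. Centring on the median of all genes gave −0.03 with 7 lower and 4 higher, and 58.3% instead of 77.6% of genes lower. Taking off the GC trend gave −0.03 with 7 lower and 3 higher, and 56.4% lower. Genes with 1 annotated transcript gave 11 lower, genes with unique words 11 lower and 0 higher, and a threshold of 0.3 gave 49 lower and 5 higher. At 60 versus 0 min a pseudocount of 0.5 gave 0 and 0, the GC trend taken off turned the median from −0.01 to 0.03, a threshold of 0.3 gave 24 lower and 18 higher, and unique words gave 3 lower and 0 higher. At 60 versus 30 min a pseudocount of 0.5 gave a median of 0.08 with 0 and 0, and centring gave 0.08 with 4 lower and 4 higher. Taking off the GC trend gave 0.05 with 5 lower and 4 higher, a threshold of 0.3 gave 8 lower and 46 higher, and unique words gave 0 lower. A larger pseudocount shrinks every change of such low values by construction; for the other settings the cause was not tested. The median level at 0 min, 0.34 per transcript, was 0.41 as deposited, 0.408 with 1 transcript and 0.38 with unique words.

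Counts of genes with a peak followed the window. In the gene body alone, with 2 kb and with 50 kb on either side, HP1γ at 0 min had 1, 6 and 38 genes and LSD1 at 0 min had 2, 9 and 60. LSD1 at 30 min had 0, 4 and 39, and displaced BPTF had 1, 2 and 20. HP1γ at 30 min had 5 in the body and 65 within 50 kb, and recruited BPTF had 2 within 50 kb. With a score of at least 50, HP1γ had 1 and 2 genes at 0 and 30 min and LSD1 had 5 and 0. Comparisons with 1 Mb flanks, unique words within clusters, class within cluster 1, genes of at most 1.5 kb, transcript number, nearest copies and peaks inside and outside cluster 8 were chosen after seeing the data. Depth limits single genes, at a median of 60.0 reads, more than the sums over clusters.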
